A study of Solanum lycopersicum with 32 samples.

Results

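The genes described here are 10 genes of sucrose cleavage and transport in tomato: 5 sucrose synthases, the sucrose transporters SUT1, SUT2 and SUT4, the vacuolar invertase Solyc03g083910 and the invertase LIN5. They were taken by identifier from the 34728 gene rows that both deposited count tables hold, and all 10 identifiers were found. Expression was measured by RNA sequencing in 32 stem libraries, 2 for each of 16 groups, from mid-segments of internodes of greenhouse plants collected 2 h after dawn, with 5 plants selected to stand for a larger population. Whether both libraries of a group came from separate plants is not stated, and the p-values then cover no more than the differences between libraries, which may be technical.

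The study was about florigen, the mobile protein that carries the flowering signal and is encoded in tomato by SFT. The overexpression experiment held plants labelled pSFT-SFT (titled pTFT, with no word on what drives the gene), the sft mutant and wild type (WT). The graft experiment held 35S:SFT donors on sp, sft and WT recipients, named donor//recipient, with sft//sft and WT//WT for comparison; sft//sft is the genotype label of grafts whose titles name a wt partner. The Ginkgo experiment held 35S:GinFT plants and no WT of its own, and the FUL experiment held 35S:SFT, 35S:TFUL2 and WT plants. In the heat-shock experiment all 4 groups carried the sft mutation: plants with a pHS:FT construct and plants without it, each heated or unheated. The 35S promoter is active in most tissues of the plant, so 35S plants are not a model of a gene's normal place of expression, and how many independent lines stand behind a construct is not given in the sources used here.

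Sucrose made in leaves reaches the stem through the phloem and is used there in several ways. Sucrose transporters move it across membranes, SUT1 being the one that loads tomato phloem. Sucrose synthases split it, with UDP, into fructose and UDP-glucose, the substrate from which cellulose is made, and their activity is high in stems that are building wood and fibres. Invertases split it into glucose and fructose, in the vacuole or in the cell wall, depending on the enzyme. The tables hold identifiers only: the transporter and invertase names are those given with the identifiers to the list, and the sucrose synthases are called by identifier.

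Levels are given as CPM, read counts scaled to a common library total in all libraries and not divided by gene length, so that a gene is compared with itself across libraries and not with other genes. Libraries held between 16583755 and 45790153 counted reads. SFT itself (Solyc03g063100) stood at 60.6 and 56.7 CPM in the 35S:SFT libraries of the FUL experiment and was listed at 0 in both WT libraries, whereas the libraries labelled pSFT-SFT held 1.07 and 1.29 CPM, below the 2.92 and 2.28 CPM of their WT libraries. FUL2 (Solyc03g114830) reached 1360 and 1060 CPM in the 35S:TFUL2 libraries, against 2.22 and 4.21 CPM in WT libraries. Reads of Arabidopsis FT numbered 57 and 70 in the heated pHS:FT pair and 1 in each unheated pHS:FT library. Both heated sft libraries had 0, but the unheated sft libraries had 12 and 0, so that 1 library of plants without the construct held FT reads.

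**Figure D1:**
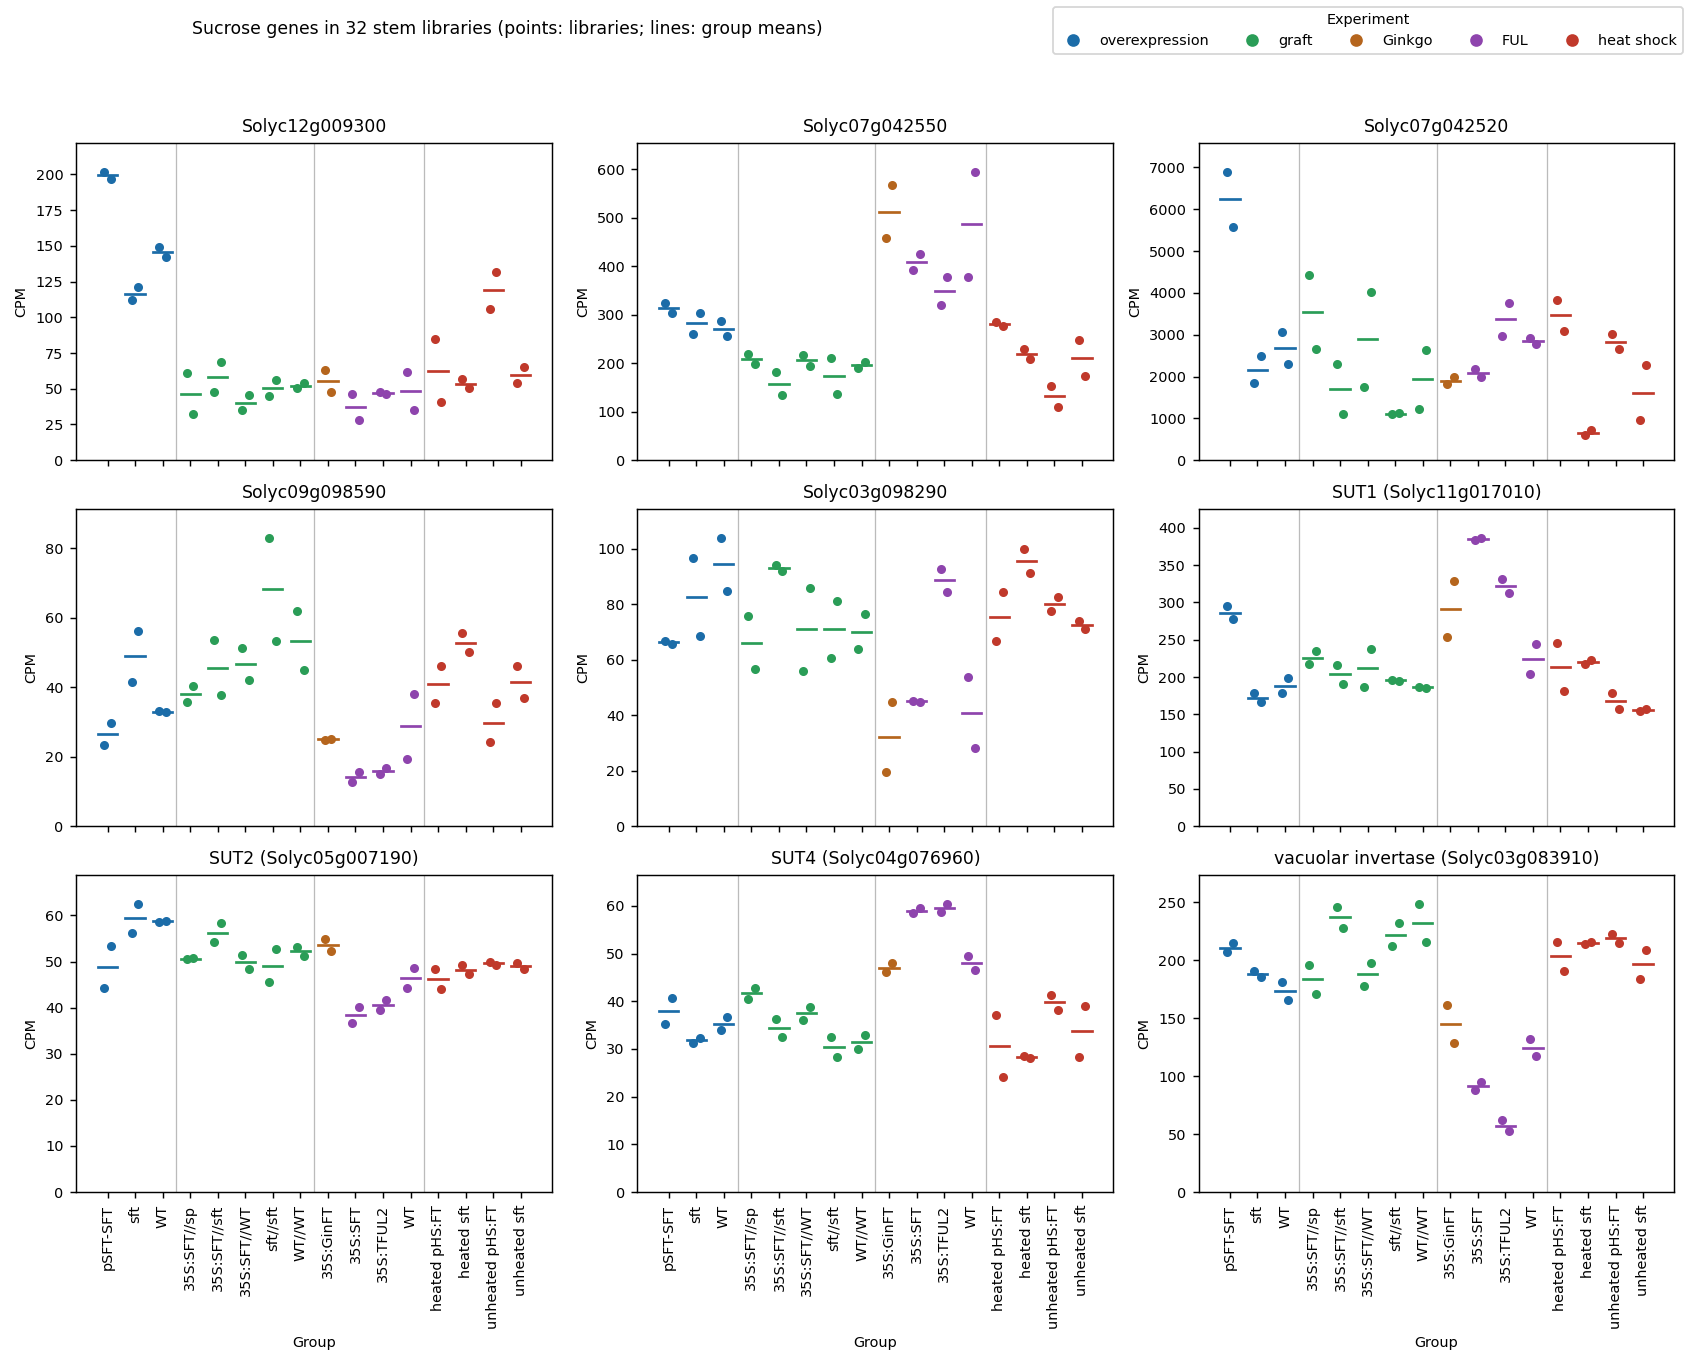
Levels of the 9 genes with reads to test in the 32 stem libraries, in CPM on the y axis, with the 16 groups on the x axis; each point is 1 library, each short line the mean of a group's 2 libraries, and colours mark the experiment. Solyc07g042520 and SUT1 lie higher in the libraries labelled pSFT-SFT than in WT and sft libraries of the same experiment, and SUT2 spans the narrowest range, with group means from 38.4 to 59.5 CPM.

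The sucrose synthase Solyc07g042520 had the widest range of the genes described here. Its reads made up between 0.06 and 0.657% of a library. The lowest group mean, 659 CPM in heated sft plants, and the highest, 6240 CPM in plants labelled pSFT-SFT, differed 9.46-fold. It was called higher in 3 comparisons and lower in 1.

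In the overexpression experiment Solyc07g042520 stood at 6900 and 5570 CPM in the libraries labelled pSFT-SFT, 1850 and 2480 CPM in sft libraries, and 3070 and 2310 CPM in WT libraries. Both libraries labelled pSFT-SFT lay above all 4 others, and the sft and WT libraries overlapped. The gene was higher in pSFT-SFT than in WT, with a log2 fold change of 1.22 ± 0.21 (SE, 2 libraries per group) and an adjusted p of 0.0124 in edgeR's quasi-likelihood test over all genes. It was also higher than in sft, by 1.53 ± 0.21 on the log2 scale with an adjusted p of 0.00541, and this call held whichever library was left out. The call against WT was lost without the first pSFT-SFT library (adjusted p = 0.0573) or without the second WT library (adjusted p = 0.0693). Both comparisons share the pSFT-SFT libraries. Some markers of another tissue, but not all, moved with this result. The summed level of 3 cellulose synthase genes, listed as secondary-wall markers (Solyc09g072820, Solyc02g072240 and Solyc01g087210), was 3350 and 3080 CPM in pSFT-SFT, 1810 and 2140 CPM in sft and 2310 and 2080 CPM in WT libraries. None of the 3 was at 0 in any library. Of these, 2 were higher in pSFT-SFT and Solyc01g087210 was not, with 1210 and 1220 CPM in pSFT-SFT, 1440 and 1490 CPM in sft and 1520 and 1450 CPM in WT libraries. Whether Solyc01g087210 marks the same kind of wall as the other 2 was not tested. In whole stem segments a change in the number of cells that express a gene cannot be told apart from a change in RNA per cell, and the part of wall-forming cells in the result was not tested.

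The heat-shock experiment showed the largest difference of any of the 10 genes, again in Solyc07g042520. Heated pHS:FT libraries held 3840 and 3090 CPM, against 605 and 713 CPM in heated sft libraries. These groups lay far apart, and the gene was 5.3-fold higher in heated pHS:FT, with a log2 fold change of 2.41 ± 0.38 (SE) and an adjusted p of 0.0219. Unheated pHS:FT libraries held 3010 and 2660 CPM, and unheated sft libraries 956 and 2280 CPM. The unheated pHS:FT libraries thus lay near the heated ones. The gene's low values were in libraries labelled sft without the construct, among them the library with FT reads. The other unheated sft library, at 2280 CPM, was not low. The log2 change with heat was 0.30 ± 0.36 in pHS:FT plants and -1.29 ± 0.36 in sft plants, and neither was called (adjusted p = 0.64 and 0.337). The difference between both changes, 1.59 ± 0.51 on the log2 scale, was not called either (adjusted p = 0.40), nor was unheated pHS:FT against unheated sft (0.81 ± 0.36, adjusted p = 0.724).

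The unheated sft library with 12 FT reads was the one at 956 CPM of Solyc07g042520. Without it the change with heat in sft plants was -1.78 on the log2 scale and called (adjusted p = 0.0369), without the other it was -0.54 and not called (adjusted p = 0.422). The difference between the heat responses was 2.09 without the library with FT reads (adjusted p = 0.0621) and 0.84 without the other (adjusted p = 0.33). Without the other unheated sft library, at 2280 CPM, unheated pHS:FT plants were higher than unheated sft plants by 1.56 on the log2 scale (adjusted p = 0.0366), a call that rests on the library with FT reads: without that one the difference was 0.32 (adjusted p = 1). The call between heated groups was lost without the second heated pHS:FT library (adjusted p = 0.0527) and without the first or the second heated sft library (adjusted p = 0.241 and 0.178). Summed over the 3 cellulose synthases, heated pHS:FT libraries held 3320 and 2380 CPM and heated sft libraries 1810 and 1980 CPM. Most of that sum was Solyc01g087210, with a mean of 1640 CPM in both groups. Solyc09g072820 averaged 751 CPM in heated pHS:FT and 167 CPM in heated sft libraries, and Solyc02g072240 455 CPM in heated pHS:FT and 92.2 CPM in heated sft libraries. The part of wall-forming cells was not tested.

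Among the grafts both libraries of a group were often far apart for Solyc07g042520. It stood at 4430 and 2660 CPM in 35S:SFT//sp, 2310 and 1110 CPM in 35S:SFT//sft, 1750 and 4030 CPM in 35S:SFT//WT, 1110 and 1120 CPM in sft//sft, and 1230 and 2630 CPM in WT//WT libraries. Each group with a 35S:SFT donor overlapped with the group it was set against. The log2 fold changes were 0.61 ± 0.52 for 35S:SFT//sft against sft//sft and 0.59 ± 0.52 for 35S:SFT//WT against WT//WT, with adjusted p-values of 0.96 and 0.91. Both sft//sft libraries lay below both WT//WT libraries, with a log2 difference of -0.78 ± 0.52 that was not called either (adjusted p = 0.81). Graft labels fall into 2 runs of numbers, with 1 library of each group in each run. Within runs, 35S:SFT//WT was 1.53-fold and 1.42-fold the level of WT//WT, and 35S:SFT//sft was 0.991-fold and 2.08-fold the level of sft//sft, and sft//sft was 0.426-fold and 0.902-fold the level of WT//WT.

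In the FUL experiment Solyc07g042520 stood at 2190 and 1990 CPM in 35S:SFT, 2960 and 3770 CPM in 35S:TFUL2 and 2910 and 2770 CPM in WT libraries. The 35S:SFT libraries were below all others of that experiment, and the 35S:TFUL2 libraries above all others. The gene was lower in 35S:SFT than in 35S:TFUL2, by a log2 fold change of -0.72 ± 0.15 (SE) with an adjusted p of 0.0412, a call lost whichever library was left out (adjusted p between 0.0523 and 0.228). Against WT the log2 difference in 35S:SFT was -0.46 ± 0.14 with an adjusted p of 0.16 in edgeR and 0.0354 in DESeq2. In 35S:GinFT it stood at 1810 and 2000 CPM, with a log2 difference from the WT of the FUL experiment of -0.54 ± 0.13 (adjusted p = 0.0626 in edgeR and 0.00237 in DESeq2); there construct and experiment cannot be told apart. The libraries labelled pSFT-SFT and those labelled 35S:SFT therefore lay on opposite sides of their own WT libraries, a contrast between separate experiments that was not tested.

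The sucrose synthase Solyc12g009300 was higher in pSFT-SFT than in both other groups of its experiment. It stood at 202 and 197 CPM in the libraries labelled pSFT-SFT, 112 and 121 CPM in sft libraries and 149 and 142 CPM in WT libraries. The groups did not overlap and lay in the order pSFT-SFT, WT, sft. The log2 fold change was 0.45 ± 0.07 (SE) against WT, with an adjusted p of 0.0112, and 0.77 ± 0.07 against sft, with an adjusted p of 0.00205. The call against sft held whichever library was left out, and that against WT was lost without the first pSFT-SFT library (adjusted p = 0.0502) or the second WT library (adjusted p = 0.0802). Between sft and WT the log2 difference was -0.32 ± 0.07, which was not called (adjusted p = 0.62).

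The level of Solyc12g009300 also differed between experiments. The 6 overexpression libraries held 112 to 202 CPM and the other 26 libraries 28.4 to 132 CPM, and only unheated pHS:FT libraries, at 106 and 132 CPM, came near. Heated pHS:FT libraries held 84.8 and 40.7 CPM, heated sft libraries 56.5 and 50.6 CPM and unheated sft libraries 53.8 and 65.1 CPM. Thus the unheated pHS:FT libraries were above all other heat-shock libraries, and the heated pHS:FT pair was uneven. The log2 difference with heat in pHS:FT plants was -0.91 ± 0.30, with an adjusted p of 0.115 in edgeR and 0.0166 in DESeq2. That difference was -1.54 without the first heated pHS:FT library. This value rests on the heated library at 40.7 CPM alone, and the one left out, at 84.8 CPM, was nearer to the unheated pair. In the graft, FUL and Ginkgo experiments the gene stayed between 28.4 and 68.5 CPM.

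The sucrose synthase Solyc07g042550 was higher in heated than in unheated pHS:FT plants. It averaged 280 ± 5.94 CPM in heated pHS:FT libraries, against 131 ± 31.4 CPM in unheated pHS:FT libraries (SD, 2 libraries each). Plants without the construct stood between, at 219 ± 15.9 CPM in heated and 211 ± 52.4 CPM in unheated sft libraries. The change with heat in pHS:FT plants was 2.15-fold, a log2 fold change of 1.10 ± 0.21 (SE) with an adjusted p of 0.0288. No call remained when any single library of the 4 was dropped (adjusted p between 0.0528 and 0.166). The change in sft plants was 0.06 on the log2 scale, and the difference between both changes was 1.05 ± 0.29 with an adjusted p of 0.351 in edgeR and 0.0318 in DESeq2. Across experiments the 8 FUL and Ginkgo libraries held 320 to 595 CPM and the other 24 libraries 109 to 324 CPM. The same libraries differed in markers of green tissue, with a summed level of 3 Rubisco small subunit genes of 419 to 1640 CPM in FUL and Ginkgo and 2540 to 5030 CPM in the others, whose part in the difference was not tested. The identifier is numbered close to Solyc07g042520. How reads shared between such genes were counted is not stated, and values of either may include reads of the other.

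The sucrose synthase Solyc09g098590 was lower in pSFT-SFT than in sft plants. It stood at 23.4 and 29.7 CPM in the libraries labelled pSFT-SFT, 41.6 and 56.2 CPM in sft libraries and 33.2 and 32.7 CPM in WT libraries. The groups did not overlap, and their order was the reverse of that of Solyc12g009300. The log2 fold change against sft was -0.88 ± 0.17 (SE) with an adjusted p of 0.0159, and the call was lost without the first pSFT-SFT library (adjusted p = 0.079) or the second sft library (adjusted p = 0.0562). Against WT it was -0.31 and not called.

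The highest group mean of Solyc09g098590, 68.1 CPM, was that of sft//sft grafts, with 83 and 53.2 CPM. Its lowest was that of 35S:SFT plants of the FUL experiment, with 12.6 and 15.6 CPM, next to 15.1 and 16.7 CPM in 35S:TFUL2, and 19.4 and 38 CPM in WT libraries. Both constructs were below WT, but the WT libraries were far apart. The log2 difference was -1.05 ± 0.32 in 35S:SFT (adjusted p = 0.15) and -0.84 ± 0.32 in 35S:TFUL2 (adjusted p = 0.139). Without the first WT library the log2 differences were -1.46 in 35S:SFT and -1.25 in 35S:TFUL2. These values rest on the WT library at 38 CPM alone. The WT library left out, at 19.4 CPM, was the one nearer to both constructs. Levels in the other graft groups lay between 35.6 and 61.8 CPM.

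The sucrose synthase Solyc03g098290 was higher in 35S:TFUL2 than in WT. It stood at 92.7 and 84.4 CPM in 35S:TFUL2 libraries, 45.1 and 44.9 CPM in 35S:SFT libraries and 53.6 and 28.1 CPM in WT libraries. The 35S:TFUL2 libraries were clear of all others of that experiment. The log2 fold change was 1.14 ± 0.27 (SE) with an adjusted p of 0.0479, a call lost without the first or the second 35S:TFUL2 library (adjusted p = 0.178 and 0.168) and with DESeq2's size factors in edgeR (adjusted p = 0.0505). The log2 difference of 35S:SFT from 35S:TFUL2 was -1.02 ± 0.27, with an adjusted p of 0.0721 in edgeR and 0.00474 in DESeq2. In the overexpression experiment the libraries labelled pSFT-SFT held 66.8 and 65.8 CPM, against 96.8 and 68.7 CPM in sft and 104 and 84.9 CPM in WT libraries. The log2 difference from WT there was -0.51 ± 0.17, with an adjusted p of 0.0911 in edgeR and 0.0462 in DESeq2.

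The values of Solyc03g098290 may not be its own. A further sucrose synthase gene, Solyc02g081300, ran nearly parallel to it: the Pearson correlation of the 16 group means on the log2 scale, each less the mean of its experiment with FUL and Ginkgo taken as one, was 0.99. The ratio of their counts in a library, Solyc03g098290 over Solyc02g081300, lay between 0.829 and 1.05, with a median of 0.954. The pair was picked out after its values were seen. Solyc02g081300 was also higher in 35S:TFUL2 than in WT, by 1.33 ± 0.30 on the log2 scale (adjusted p = 0.0412). Whether both identifiers share reads was not tested.

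**Figure D2:**
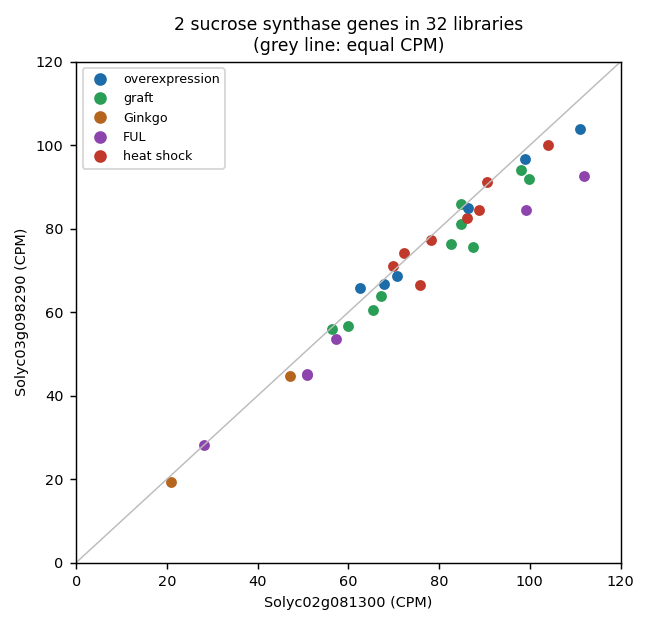
Levels of the sucrose synthase genes Solyc02g081300 (x axis, CPM) and Solyc03g098290 (y axis, CPM) in the 32 libraries; each point is 1 library, colours mark the experiment and the grey line marks equal values. The points lie along the line, with a ratio of counts between 0.829 and 1.05.

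SUT1 (Solyc11g017010), the transporter of phloem loading, was higher in 3 groups with a florigen or FUL2 construct than in their controls and was lower in none. In the overexpression experiment it stood at 295 and 278 CPM in the libraries labelled pSFT-SFT, 179 and 166 CPM in sft libraries and 178 and 199 CPM in WT libraries. The pSFT-SFT libraries lay above all others, and sft and WT overlapped. The log2 fold change was 0.61 ± 0.09 (SE) against WT, with an adjusted p of 0.00916, and 0.73 ± 0.09 against sft, with an adjusted p of 0.00419. Both calls held whichever library was left out.

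In the FUL experiment SUT1 stood at 384 and 387 CPM in 35S:SFT, 332 and 312 CPM in 35S:TFUL2 and 204 and 244 CPM in WT libraries. The groups did not overlap. The log2 fold change from WT was 0.76 ± 0.12 in 35S:SFT (adjusted p = 0.0441) and 0.54 ± 0.12 in 35S:TFUL2 (adjusted p = 0.0367). These comparisons share their WT libraries. The call in 35S:SFT was lost without its first or second library (adjusted p = 0.217 and 0.253), and the call in 35S:TFUL2 likewise without its first or second library (adjusted p = 0.15 and 0.132). In 35S:GinFT SUT1 stood at 253 and 329 CPM, and the log2 difference from the FUL WT was 0.41 ± 0.14 (adjusted p = 0.134).

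The grafts showed a narrow range of SUT1, 185 to 238 CPM over 10 libraries. The 35S:SFT//WT libraries, at 186 and 238 CPM, overlapped with WT//WT, at 187 and 185 CPM, and 35S:SFT//sft, at 216 and 191 CPM, overlapped with sft//sft, at 196 and 195 CPM. With heat, SUT1 stood at 246 and 181 CPM in heated and 179 and 157 CPM in unheated pHS:FT libraries, and at 218 and 223 CPM in heated and 155 and 157 CPM in unheated sft libraries. Heated libraries were above unheated ones in both genotypes. The log2 differences were 0.36 ± 0.15 in pHS:FT plants and 0.50 ± 0.15 in sft plants, and neither was called (adjusted p = 0.193 and 0.363). The difference between both was -0.14 on the log2 scale.

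SUT4 (Solyc04g076960), of a transporter group found on the vacuolar membrane in several plants, differed between experiments more than within them. The 8 FUL and Ginkgo libraries held 46.1 to 60.5 CPM and the other 24 libraries 24.2 to 42.8 CPM, with no overlap. Rubisco small subunit genes, listed as markers of green tissue (Solyc02g085950, Solyc03g034220 and Solyc02g063150), separated the same libraries: their summed level was 419 to 1640 CPM in the FUL and Ginkgo libraries and 2540 to 5030 CPM in the others, with none of the 3 at 0. These experiments were not compared by a test, and the part of green tissue was not tested.

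Within the FUL experiment SUT4 stood at 58.5 and 59.5 CPM in 35S:SFT, 58.8 and 60.5 CPM in 35S:TFUL2 and 49.5 and 46.5 CPM in WT libraries. Both constructs lay above WT and overlapped each other. The gene was higher in 35S:TFUL2, with a log2 fold change of 0.33 ± 0.08 (SE) and an adjusted p of 0.0415, a call lost whichever library was left out (adjusted p between 0.0539 and 0.179). In 35S:SFT the log2 difference was 0.28 ± 0.08, which was not called (adjusted p = 0.125). In 35S:GinFT, at 46.1 and 48 CPM, the gene was lower than in 35S:SFT, with a log2 fold change of -0.27 ± 0.07 and an adjusted p of 0.0269, again lost whichever library was left out (adjusted p between 0.0716 and 0.134).

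In the grafts SUT4 was called in no comparison with a 35S:SFT donor. It stood at 36 and 38.9 CPM in 35S:SFT//WT, against 29.9 and 32.9 CPM in WT//WT libraries. The log2 difference was 0.26 ± 0.11 with an adjusted p of 0.694, and within the runs of labels the ratio was 1.18 and 1.20. In sft recipients it stood at 36.2 and 32.6 CPM with the 35S:SFT donor, against 32.5 and 28.3 CPM in sft//sft, a ratio of 1.15 and 1.11 within runs. The log2 difference there was 0.18 ± 0.11, with an adjusted p of 0.951. The groups did not overlap in either recipient, which also held for 36.1% of all genes in WT and 33% in sft recipients. The libraries labelled pSFT-SFT held 35.3 and 40.6 CPM, against 31.2 and 32.4 CPM in sft and 33.9 and 36.7 CPM in WT libraries.

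SUT2 (Solyc05g007190), a transporter of the phloem that tomato pollen tubes also use, was the steadiest of the genes tested: its highest group mean was 1.55 times its lowest. It stood at 55 and 52.2 CPM in 35S:GinFT libraries, against 36.7 and 40.1 CPM in 35S:SFT libraries. The groups did not overlap, and SUT2 was higher in 35S:GinFT by 0.54 ± 0.09 (SE) on the log2 scale, with an adjusted p of 0.00748. That call was lost without the first 35S:GinFT library (adjusted p = 0.0553) or the first 35S:SFT library (adjusted p = 0.0585). These groups belong to separate experiments. The summed level of the 3 Rubisco small subunit genes moved with this comparison, at 419 and 526 CPM in 35S:GinFT, against 1570 and 1360 CPM in 35S:SFT libraries, and the part of green tissue in this call and in the SUT4 and vacuolar invertase calls between these groups was not tested. In the overexpression experiment SUT2 stood at 44.2 and 53.3 CPM in pSFT-SFT, 56.3 and 62.6 CPM in sft and 58.5 and 58.9 CPM in WT libraries, with log2 differences of -0.27 from WT and -0.29 from sft that were not called (adjusted p = 0.136 and 0.112). The 8 heat-shock libraries lay between 44.1 and 50 CPM.

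The vacuolar invertase Solyc03g083910, which releases glucose and fructose inside the vacuole, was lowest in 35S:TFUL2 plants. It stood at 62.4 and 52.4 CPM in 35S:TFUL2 libraries, 88 and 94.7 CPM in 35S:SFT libraries and 132 and 117 CPM in WT libraries. The groups did not overlap. The gene was 0.466-fold in 35S:TFUL2 relative to WT, a log2 fold change of -1.10 ± 0.12 (SE) with an adjusted p of 0.00647, which was lost without the second 35S:TFUL2 library (adjusted p = 0.0526) and held without any of the other 3. In 35S:SFT it was higher than in 35S:TFUL2, by 0.63 ± 0.12 (adjusted p = 0.0347), a call lost whichever library was left out (adjusted p between 0.0584 and 0.192). The log2 difference of 35S:SFT from WT was -0.47 ± 0.12, with an adjusted p of 0.106 in edgeR and 0.0244 in DESeq2. In 35S:GinFT, at 161 and 129 CPM, it was higher than in 35S:SFT, by 0.73 ± 0.15 (adjusted p = 0.012), a call lost without the first 35S:GinFT library (adjusted p = 0.0677) and without the first or second 35S:SFT library (adjusted p = 0.0766 and 0.0646).

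In the other experiments Solyc03g083910 held between 166 and 249 CPM, above the 52.4 to 161 CPM of all FUL and Ginkgo libraries, which were also those low in Rubisco small subunit genes. The libraries labelled pSFT-SFT held 207 and 215 CPM, against 191 and 186 CPM in sft and 181 and 166 CPM in WT libraries. They were above the rest by a small margin, and the gene was higher in pSFT-SFT than in WT by 0.28 ± 0.07 (adjusted p = 0.0436). This was the weakest of the calls of that experiment, lost whichever library was left out (adjusted p between 0.0847 and 0.23). With heat it stood at 216 and 191 CPM in pHS:FT libraries, against 223 and 215 CPM unheated. In sft plants it stood at 214 and 216 CPM heated, against 184 and 209 CPM unheated, and neither pair of groups gave a call.

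LIN5 (Solyc09g010080), a cell-wall invertase known from tomato flowers and fruit, was barely detected in these stems. It had 8 reads in all, spread over 7 libraries with at most 2 reads each, and 0 reads in the other 25 libraries. A count of 0 allows a level of up to 0.0655 to 0.181 CPM, depending on the depth of the library. It was tested in no comparison.

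The spread between both libraries of a group was wider for the sucrose synthases than for the transporters. The median over the 16 groups of the higher library divided by the lower was 1.14 to 1.26 for the 5 sucrose synthases. It was 1.06 to 1.08 for the 3 transporters and 1.10 for the vacuolar invertase. Over the 15640 genes whose mean log2 CPM reached 2, the median of that ratio was 1.10, so the sucrose synthases lay above it and the transporters below. The widest single pair of any gene tested was that of Solyc07g042520 in unheated sft plants, 2.38-fold. When the 16 groups were put in order of their mean level, few neighbours were apart, in that no library of one group lay within the range of the other: 1 of 15 neighbouring pairs for Solyc03g098290, 2 of 15 for Solyc07g042550, Solyc07g042520, Solyc09g098590 and SUT4, and 3 of 15 for Solyc12g009300, SUT1, SUT2 and the vacuolar invertase. For Solyc07g042520 these were heated sft plants below sft//sft grafts, and 35S:SFT//sp grafts below plants labelled pSFT-SFT. All neighbours between those did not differ beyond their spread.

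Counted by comparison, the 9 genes with enough reads gave 20 calls in 162 tests, 16 higher and 4 lower, in 8 of 18 comparisons, and each of the 9 was called at least once. Plants labelled pSFT-SFT against WT gave 4 of 9 called, 4 higher and 0 lower (Solyc07g042520, Solyc12g009300, SUT1 and the vacuolar invertase), where 17.8% of all 21141 genes tested were called. Against sft they gave 4 of 9, with 3 higher and 1 lower (Solyc09g098590), where 19.4% of all genes were called. Between sft and WT 0 of 9 were called by edgeR or DESeq2, where edgeR called 0.0568% of all genes. An unadjusted p under 0.05 was reached by 2 of the 9 and by 1056 of all 21141 genes. The median log2 difference of the 9 genes was 0.21 in pSFT-SFT against WT, 0.16 against sft and -0.13 in sft against WT, with a median over all genes of 0, -0.01 and 0.

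Grafts gave 0 calls among the 9 genes in all 5 comparisons, by edgeR and by DESeq2. For 35S:SFT//sft against sft//sft, 0 of the 9 and 1066 of all 21566 genes had an unadjusted p under 0.05. Of all genes, 0% were called. For 35S:SFT//WT against WT//WT, 2 of the 9 and 1476 of all genes had an unadjusted p under 0.05, and 0.0139% of all were called. The difference between both donor effects had 1 of the 9 and 826 of all genes under that p, with 0% called. For sft//sft against WT//WT it was 0 of the 9 and 1445 of all genes, with 0.00927% called. For 35S:SFT//sp against 35S:SFT//WT it was 0 of the 9 and 546 of all genes, with 0.00464% called. Few genes of any kind were called in the grafts, so these counts say little about the sucrose genes.

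In the FUL experiment, 35S:SFT against WT gave 1 of 9 higher (SUT1), where 1.74% of all genes were called. The comparison of 35S:TFUL2 with WT gave 3 higher (SUT1, SUT4 and Solyc03g098290) and 1 lower (the vacuolar invertase), where 12.7% were called. Between 35S:SFT and 35S:TFUL2 there were 1 higher and 1 lower, where 8.53% were called. For 35S:GinFT, 0 of 9 differed from the FUL WT by edgeR, where 6.24% of all genes were called. DESeq2 called 1 of the 9 and 1969 of all genes. In edgeR, 3 of the 9 and 5510 of all 21458 genes had an unadjusted p under 0.05. Against 35S:SFT, 2 were higher and 1 lower in 35S:GinFT, where 32% were called. The last share of 3 in 9 is close to that of all genes.

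With heat, 0 of 9 genes were called in sft plants by edgeR or DESeq2, where edgeR called 0.0973% of all genes. An unadjusted p under 0.05 was reached there by 3 of the 9 and by 1953 of all 20546 genes. In pHS:FT plants 1 was called higher (Solyc07g042550), where 5.99% were called. The difference between both responses gave 0 of 9 by edgeR, where 0.0146% of all genes were called, and 1 by DESeq2, which called 228 genes. Unadjusted p-values under 0.05 numbered 3 among the 9 and 1952 among all genes. Heated pHS:FT against heated sft gave 1 higher (Solyc07g042520), where 2.39% were called. Unheated pHS:FT against unheated sft gave 0 by both tools, where edgeR called 0% of all genes. An unadjusted p under 0.05 was reached by 3 of the 9 and by 1445 of all genes.

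How often libraries of 2 groups failed to overlap, in either direction, can be read against all genes too, since with 2 libraries a group this is common. Against WT, the libraries labelled pSFT-SFT were apart for 8 of 9 sucrose genes, against 61.9% of all genes, and against sft for 8 of 9, against 62.4%. Between sft and WT it was 4 of 9, against 34.2%. In the grafts it was 3 of 9 for 35S:SFT//sft against sft//sft (33% of all genes) and 3 for 35S:SFT//WT against WT//WT (36.1%). It was 2 for sft//sft against WT//WT (36.5%) and 2 for 35S:SFT//sp against 35S:SFT//WT (25.6%). For 35S:SFT it was 6 against WT (54.9%) and 6 against 35S:TFUL2 (66%), and for 35S:TFUL2 7 against WT (58.2%). For 35S:GinFT it was 3 against WT (53.9%) and 8 against 35S:SFT (73.5%). With heat it was 5 in sft plants (43.8%) and 7 in pHS:FT plants (54.2%), and between pHS:FT and sft it was 4 heated (49.8%) and 6 unheated (37.9%).

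**Figure D3:**
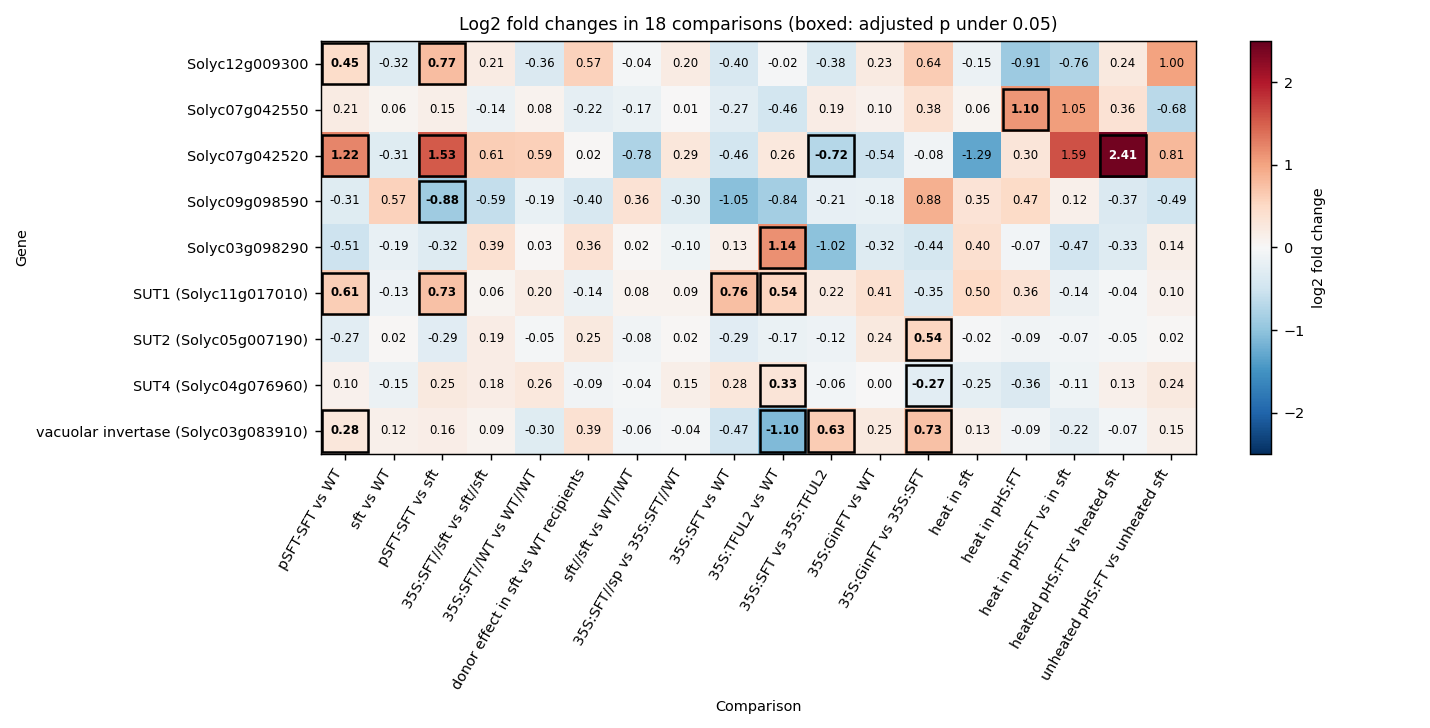
Log2 fold changes of the 9 genes tested (rows) in the 18 comparisons (columns), each named with the group on top of the ratio first; colour and printed value give the log2 fold change, and black boxes mark an adjusted p under 0.05. The 20 boxes fall in 8 columns, 8 of them in the pSFT-SFT comparisons with WT and sft.

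Other genes of sucrose and hexose use were read from a list of 17, tied to identifiers from published knowledge: 4 sucrose phosphate synthases, which make sucrose, the sucrose synthase Solyc02g081300, 4 further acid invertases, and 4 fructokinases and 4 hexokinases, which phosphorylate the sugars that cleavage releases. All 17 were tested. Plants labelled pSFT-SFT had 2 of them higher and 3 lower than WT, where 17.8% of all genes were called. The fructokinase FRK2 (Solyc06g073190) stood at 1350 and 1260 CPM in pSFT-SFT, against 753 and 624 CPM in WT libraries, a log2 fold change of 0.92 ± 0.11 (SE, adjusted p = 0.00495). The invertase LIN8 (Solyc10g083300) stood at 7.22 and 7.37 CPM in pSFT-SFT, against 0.972 and 0.831 CPM in WT libraries, an 8.04-fold difference (adjusted p = 0.00173). Those that were lower were the sucrose phosphate synthase Solyc11g045110 (log2 fold change -1.91, adjusted p = 0.000291), with 6.51 and 6.23 CPM against 24.1 and 23.6 CPM, the invertase LIN9 (Solyc08g079080, -1.36, adjusted p = 0.0344) and the fructokinase FRK3 (Solyc02g091490, -0.54, adjusted p = 0.0108). Both an invertase and a fructokinase therefore stood among the genes that were higher and among those that were lower. Against sft, where 19.4% of all genes were called, 2 were higher, FRK2 (1.09) and LIN8 (3.43), and 4 lower, Solyc11g045110 (-1.73), LIN9 (-2.22), FRK3 (-0.56) and the fructokinase FRK1 (Solyc03g006860, -0.38). Leaving out libraries in turn ended no call of FRK2, LIN8 or Solyc11g045110. It ended that of LIN9 against WT and that of FRK1 with any library left out (adjusted p up to 0.151 and 0.174), and that of FRK3 without the second WT library (adjusted p = 0.0629) or, against sft, without the first sft library (adjusted p = 0.0505).

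In the FUL experiment, 3 genes of the list were higher in 35S:TFUL2 than in WT and 4 were lower, where 12.7% of all genes were called. The sucrose phosphate synthase Solyc11g045110 was higher, at 38.5 and 38.4 CPM in 35S:TFUL2 and 11 and 11.2 CPM in WT libraries (log2 fold change 1.81, adjusted p = 0.00194), and LIN8 (Solyc10g083300) was lower, at 0.376 and 0.571 CPM in 35S:TFUL2 and 8.4 and 3.34 CPM in WT libraries (-3.58, adjusted p = 0.0142). The sucrose phosphate synthase Solyc08g042000 (0.61) and the sucrose synthase Solyc02g081300 (1.33) were higher too, and LIN9 (-2.52), FRK1 (-0.84) and the hexokinase HXK4 (-0.41) lower. In 35S:SFT against WT, where 1.74% of all genes were called, 0 were higher and 1 was lower, the sucrose phosphate synthase Solyc08g042000 (-0.86, adjusted p = 0.0441). In 35S:SFT against 35S:TFUL2, where 8.53% were called, 2 were higher, LIN8 (3.02) and FRK1 (0.45), and 2 lower, Solyc11g045110 (-1.50) and Solyc08g042000 (-1.47). In 35S:GinFT, where 6.24% of all genes were called against WT, 1 was higher than in WT, LIN9 (Solyc08g079080, 2.49, adjusted p = 0.0172), which stood at 9.44 and 5.53 CPM in 35S:GinFT, against 1.66 and 1.09 CPM in WT libraries. Compared with 35S:SFT, 4 were higher in 35S:GinFT, LIN9 (4.69), LIN6 (1.46) and the sucrose phosphate synthases Solyc09g092130 (1.20) and Solyc08g042000 (0.74), and 3 were lower, the hexokinase HXK3 (-0.67), Solyc11g045110 (-0.55) and FRK2 (-0.48). In that comparison 32% of all genes were called, a share near that of the list. Of these calls, those of Solyc11g045110 in both 35S:TFUL2 comparisons and of LIN9 in 35S:GinFT against 35S:SFT held whichever library was left out. The other 6 against WT in 35S:TFUL2 were lost without its first or its second library (highest adjusted p between 0.066 and 0.162), that in 35S:SFT against WT without either 35S:SFT library or the second WT library (up to 0.243), and that of LIN9 against WT without the first 35S:GinFT library (0.0968). The other 3 of 35S:SFT against 35S:TFUL2 and the other 6 of 35S:GinFT against 35S:SFT were each lost without at least 1 library (up to 0.233 and 0.191).

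With heat in pHS:FT plants, where 5.99% of all genes were called, the sucrose phosphate synthase Solyc07g007790 was higher (log2 fold change 0.82, adjusted p = 0.0288) and the hexokinase HXK1 (Solyc03g121070) lower (-0.47, adjusted p = 0.0462). Between heated groups, with pHS:FT over sft and 2.39% of all genes called, Solyc07g007790 was higher (0.84, adjusted p = 0.0385) and LIN9 (Solyc08g079080) lower (-1.69, adjusted p = 0.00996). In the other 9 comparisons 0 of the 17 were called by edgeR, among them all 5 of the grafts, and 0 to 3 had an unadjusted p under 0.05. In those comparisons 546 to 1953 of all genes had such a p. DESeq2 called 2 for the difference between the heat responses, where it called 228 of all genes, and 0 in the other 8. It also called all 35 that edgeR called over the 18 comparisons, of which 10 held whichever library was left out. All 4 calls of the heat-shock experiment were lost without at least 1 library, among others without either heated sft library for those against heated sft and without either unheated pHS:FT library for those with heat (highest adjusted p between 0.122 and 0.298).

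Across the 16 groups, the genes described here did not move as one. Over the 36 pairs of the 9 genes, the correlation of group means on the log2 scale, each less the mean of its experiment with FUL and Ginkgo taken as one, ranged from -0.91 to 0.63, with a median of -0.09. Groups of one experiment share the mean that was taken off, and the values are descriptions. The highest was between Solyc07g042520 and SUT4, and the lowest between Solyc09g098590 and SUT4. Solyc03g098290 and the vacuolar invertase also ran opposite to each other, with r = -0.77.

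Likeness to other genes was read for Solyc07g042520, which with SUT1 and the vacuolar invertase was called most often, in 4 comparisons. Of 15639 other genes, those most like it over the 16 groups were Solyc09g007650 and Solyc09g007660, each with r = 0.98. Of the listed genes, the correlation was 0.95 with FRK2 (Solyc06g073190), 0.91 with the cellulose synthase Solyc09g072820 and 0.90 with the cellulose synthase Solyc02g072240, and -0.39 with the third, Solyc01g087210. For example, Solyc09g072820 stood at 1300 and 1140 CPM in pSFT-SFT, 244 and 423 CPM in sft and 512 and 404 CPM in WT libraries, and at 902 and 600 CPM in heated pHS:FT, against 154 and 180 CPM in heated sft libraries. In 35S:GinFT, where Solyc07g042520 was 0.54 below WT on the log2 scale, that cellulose synthase stood at 338 and 379 CPM, against 1030 and 824 CPM in the FUL WT libraries. In 35S:SFT plants of the FUL experiment the group means went opposite ways. Solyc07g042520 averaged 2090 CPM there, against 2840 CPM in WT. Solyc09g072820 averaged 1040 CPM, against 926 CPM in WT, and Solyc02g072240 averaged 675 CPM, against 578 CPM in WT.

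**Figure D4:**
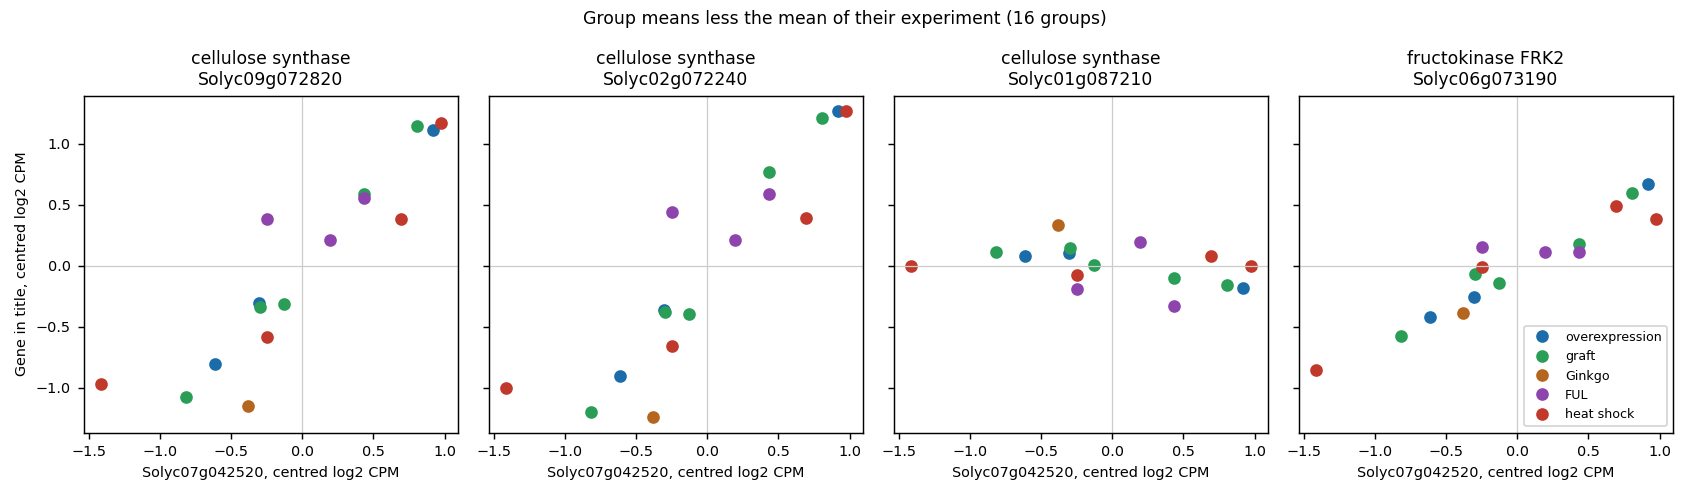
Group means of Solyc07g042520 (x axis) and of 3 cellulose synthase genes and the fructokinase FRK2 (y axes), as log2 CPM less the mean of the groups of their experiment, with FUL and Ginkgo taken as one; each point is 1 of 16 groups, and colours mark the experiment. Points rise along both axes for Solyc09g072820, Solyc02g072240 and FRK2, with r from 0.90 to 0.95, and do not for Solyc01g087210, with r = -0.39.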

How the data were processed

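The values are whole-number counts per gene that the authors deposited, in a table for heat shock and another for the remaining libraries. Per the labels' protocols, libraries of the TruSeq RNA v2 kit, which does not mark strand, gave single 50 bp reads. Per the submitters' processing notes, the tools were HTSeq 0.6.1, TopHat2 2.1.0, Bowtie2 2.2.6, Trim Galore and FastQC 0.11.5. The genome build and the treatment of shared reads are not stated, and no coordinates or sequences are printed.

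Counts were tested as deposited with edgeR 4.0.16 in R 4.3.3 (two-sided quasi-likelihood tests by glmQLFTest), after TMM scaling and a filter on low counts by filterByExpr (minimum count 10 and minimum total 15). Each fit held every group of an experiment, and the FUL and Ginkgo groups together for 35S:GinFT. The Benjamini-Hochberg adjustment ran over all genes of each of 18 comparisons, and genes under 0.05 were called. The scripts were tested on simulated data. CPM were scaled by TMM over all 32 libraries.

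The 10 genes were given and all are described; of the 17 pathway genes, values are printed for those called. Genes, lists and tests were chosen with earlier results of these data known. Alternatives were DESeq2 1.42.0, its size factors in edgeR, no filter, a fit of only the groups compared, a block for the replicate number or, in grafts, for the run of label numbers, and leaving out each library. Both libraries of a group differed by more than sampling noise (chi-square per degree of freedom between 7.26 and 47.6). Of 8 symbols compared with RefSeq genes of another assembly, 8 lay on the chromosome in the identifier, and 2 genes had none to compare.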

Additional observations from a re-analysis of the deposited data

How the results depend on the processing

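All 20 calls held in DESeq2, 4 held whichever library was left out (SUT1 in both pSFT-SFT comparisons, and Solyc12g009300 and Solyc07g042520 against sft), and 16 were lost without at least 1 library, 6 of them whichever was left out. Without the filter on low counts, the vacuolar invertase in pSFT-SFT against WT (adjusted p = 0.0539) and SUT4 in 35S:TFUL2 against WT (0.0522) were lost, and with DESeq2's size factors in edgeR Solyc03g098290 in 35S:TFUL2 against WT (0.0505). No fold change of a called gene reversed under any alternative run. With 2 libraries a group, a left-out fit assumes that the lone library varies like the other groups. Genes called of 9 went from 1 to 4 with DESeq2 and to 0 in a fit of only the groups compared or with a replicate block in 35S:SFT against WT, from 4 to 1 with only the groups compared in 35S:TFUL2 against WT, from 2 to 1 with a replicate block in 35S:SFT against 35S:TFUL2, and from 3 to 5 with that block in 35S:GinFT against 35S:SFT. They went from 0 to 1 with DESeq2 in 35S:GinFT against WT and in the difference of the heat responses, and from 1 to 2 with DESeq2 and to 0 with only the groups compared for heat in pHS:FT. The causes were not tested. With libraries left out in turn, counts lay between 1 and 3 for pSFT-SFT against WT, 3 and 4 against sft, 0 and 3 for 35S:SFT against WT, 0 and 5 for 35S:TFUL2 against WT, 0 and 0 for 35S:SFT against 35S:TFUL2, 0 and 3 for 35S:GinFT against 35S:SFT, and 0 and 1 for heat in sft, heat in pHS:FT, heated pHS:FT against heated sft and unheated pHS:FT against unheated sft.

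Replicate numbers pair the libraries by number only, since each experiment has 2 numbers: deviations of same-numbered libraries correlated between -0.62 and 0.51 among grafts and between -0.22 and 0.33 elsewhere. With the replicate block 3 calls were lost, SUT1 in 35S:SFT against WT (adjusted p = 0.0613), SUT4 in 35S:TFUL2 against WT (0.0664) and Solyc07g042520 in 35S:SFT against 35S:TFUL2 (0.0549), and 3 were gained, Solyc03g098290 in pSFT-SFT against WT (0.0391) and Solyc12g009300 and Solyc09g098590 in 35S:GinFT against 35S:SFT (0.0389 and 0.0356). A block for the runs of graft label numbers gave 0 genes in every graft comparison. Crossed numbers were tried after seeing the data, outside the grafts only, where the correlation was under -0.1. They gave 1, 0 and 0 genes for heat in pHS:FT, unheated pHS:FT against unheated sft, and 35S:GinFT against WT.

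Counts over all genes moved more: 370 in 35S:SFT against WT became 18 with only the groups compared and 1487 with DESeq2, 1338 in 35S:GinFT against WT became 172 with only the groups compared, 1230 for heat in pHS:FT became 381 with only the groups compared, 2716 in 35S:TFUL2 against WT became 1332 with only the groups compared, 1818 in 35S:SFT against 35S:TFUL2 became 3466 with only the groups compared, and 491 in heated pHS:FT against heated sft became 1007 with DESeq2. DESeq2 called 15 to 117 genes in the graft comparisons, 82 in sft against WT, 253 for heat in sft, 228 for the difference of the heat responses and 97 in unheated pHS:FT against unheated sft. With libraries left out in turn, the counts lay between 1270 and 2184 for pSFT-SFT against WT (3760 with all), 1895 and 2501 against sft (4092), 10 and 1339 for 35S:SFT against WT, 280 and 3130 for 35S:TFUL2 against WT, 100 and 529 for 35S:SFT against 35S:TFUL2, 194 and 1595 for 35S:GinFT against WT, 2155 and 4699 against 35S:SFT (6875), 31 and 2088 for heat in pHS:FT, and 17 and 897 between heated groups. The shares of all genes called rest on the counts with all libraries.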
